A study of Mus musculus with 9 samples.

Results

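The miR-34 and miR-449a microRNAs (miRNAs) were examined in the hippocampus of mice given fine particulate matter (PM2.5). The members were all arms of miR-34a, miR-34b, miR-34c and miR-449a carried by an Agilent mouse miRNA array, which gave 8 of the 1247 mouse miRNAs on it, 6 of miR-34 and 2 of miR-449a. The array names them mmu-miR-34a-5p, mmu-miR-34a-3p, mmu-miR-34b-5p, mmu-miR-34b-3p, mmu-miR-34c-5p, mmu-miR-34c-3p, mmu-miR-449a-5p and mmu-miR-449a-3p, and the species prefix is left out below. All mice were male C57BL/6 of approximately 8 weeks, an inbred strain with no transgene, and received oropharyngeal aspirations every other day over 4 weeks. The control group received saline, and the PM2.5 groups received PM2.5 at 1 or 5 mg/kg body weight (bw), with 3 mice and 3 arrays in each group. The members were chosen from measured values of these arrays, in which miR-34b and miR-34c lay higher at 1 mg/kg bw than in the control. Their values at 1 mg/kg bw are therefore a description without a test, and the comparison that was tested is 5 mg/kg bw against control, which shares the control arrays.

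A miRNA guides a silencing complex to messenger RNAs, mainly through its seed, bases 2 to 8 from the 5′ end. The hairpin precursor is cut into a 5p and a 3p arm, and in the miR-34 family the 5p arm is the usual guide. The gene of miR-34a is a direct target of the tumour suppressor p53, and miR-34a represses Sirt1 among other genes. miR-34b and miR-34c come from one primary transcript at a separate locus. Together with miR-449 they are best known from multiciliated epithelia, where they promote the formation of cilia, and miR-34c in the hippocampus has been linked with memory impairment.

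The sequences show why these miRNAs form one family although they come from separate loci. Of the 8 members, 7 had a mature entry in the RefSeq table of GRCm38.p6, and miR-34c-5p had none. The mature sequences are printed 5′ to 3′ with the seed in capitals.
miR-34a-5p: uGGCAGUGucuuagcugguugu
miR-34b-5p: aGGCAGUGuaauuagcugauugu
miR-449a-5p: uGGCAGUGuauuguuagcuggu
miR-34a-3p: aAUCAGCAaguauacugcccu
miR-34b-3p: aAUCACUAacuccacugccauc
miR-34c-3p: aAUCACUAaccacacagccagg
miR-449a-3p: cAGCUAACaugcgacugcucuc
The 5p arms of miR-34a, miR-34b and miR-449a had the same seed, which among the 1679 mature names in that table was found in 4, the fourth being miR-449c-5p. miR-34c-5p could not be counted, since it has no entry there, but the hairpin of miR-34c holds this seed once, from base 14. The 3p arms of miR-34b and miR-34c shared a different seed, held by these 2 names alone in the table, while miR-34a-3p and miR-449a-3p each had another. Compared base by base from the 5′ end, miR-34a-5p and miR-34b-5p were identical at 11 of 22 positions, and miR-34b-3p and miR-34c-3p at 17 of 22.

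The hairpins of miR-34b and miR-34c are shown because the array's probes read parts of them that are alike in the 5p arm and less so in the 3p arm. Capitals mark the bases complementary to the longer of the 2 probes of each arm.
Mir34b: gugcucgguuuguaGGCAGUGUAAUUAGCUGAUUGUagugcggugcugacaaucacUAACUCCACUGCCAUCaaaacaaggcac
Mir34c: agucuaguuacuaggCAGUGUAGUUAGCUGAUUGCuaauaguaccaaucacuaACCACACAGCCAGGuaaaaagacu
Both lie on the minus strand of chromosome 9, Mir34c at chr9:51103034-51103110 and Mir34b at chr9:51103562-51103645, with 451 bases between them, and both lie inside the spans that RefSeq gives for Hoatz and Btg4. Mir34a lies at chr4:150068454-150068555 on the plus strand and overlapped no other annotated gene, and Mir449a lies at chr13:113037534-113037624 within the span of Cdc20b. The table used gives spans and not exons, so exonic and intronic positions were not assigned. Each of these 4 hairpins contained the shared 5p seed once. Again without gaps, the longer miR-34b-5p probe target, 22 bases, differed from the best stretch of the Mir34c hairpin at 2 bases and from that of Mir34a at 10. The longer miR-34c-5p target, 20 bases, likewise differed from Mir34b at 2 bases. The 3p targets were less alike: that of miR-34b-3p, 16 bases, differed from Mir34c at 5, and that of miR-34c-3p, 14 bases, differed from Mir34b at 5. How much of the signal of one 5p arm came from the other was not tested.

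Each array gave a background-subtracted fluorescence signal per spot and a call of detected or not detected for each miRNA. Signals were summed over the probes of a miRNA, scaled to the upper quartile of the array and expressed on the log2 scale, and a value of 0 is therefore a signal at that quartile. The arrays detected 410 to 436 miRNAs and had 0 saturated spots. Slide 1 carried in its row 1 all 3 control arrays with the first array at 1 mg/kg bw, and in its row 2 the remaining arrays at 1 mg/kg bw with replicates 1 and 2 at 5 mg/kg bw. Replicate 3 at 5 mg/kg bw was hybridized in row 1 of slide 2 with no other array of the study. The tissue was checked with a list of 11 arms of neuronal miRNAs (miR-124, miR-9, miR-128, miR-132 and miR-212). Of these, 8 were detected on all 9 arrays. The summed scaled signal was 168 to 197 in the control group, 146 to 176 with the lower dose and 163 to 192 with the higher. An unadjusted p under 0.05 was reached by 0 of the 8 for either dose. Among the 424 miRNAs tested as described below, the share was 7.78% for the lower dose and 9.43% for the higher. Beside such shares, 0 of 8 arms cannot show that the neuronal content was equal between groups.

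Of the 8 members, miR-34a-5p, miR-34b-5p and miR-34c-5p were detected on all 9 arrays. miR-34b-3p was detected on 1, 3 and 1 arrays and miR-34c-3p on 2, 3 and 2 arrays, counted in the control group and then at the lower and higher dose. The other 3, miR-34a-3p, miR-449a-5p and miR-449a-3p, were detected on 0 arrays. A miRNA was tested if all arrays of some group detected it, which held for 424 miRNAs and 5 members, and both 3p arms entered through the 1 mg/kg bw group alone.

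miR-34b-5p and miR-34c-5p, the guide arms of the chromosome 9 locus, were higher on every array at 1 mg/kg bw than on any control array and lay around the control level at 5 mg/kg bw. The log2 scaled signal of mmu-miR-34b-5p was -1.23, -0.62 and -0.85 on the control arrays, -0.44, -0.13 and 0.16 at 1 mg/kg bw, and -1.29, -0.40 and -1.34 at 5 mg/kg bw. That of mmu-miR-34c-5p was -1.67, -0.94 and -1.25 on the control arrays, -0.83, -0.38 and -0.01 at 1 mg/kg bw, and -1.57, -0.63 and -1.75 at 5 mg/kg bw. For both miRNAs, replicate 2 was the highest array of the control group and of the 5 mg/kg bw group, and at 5 mg/kg bw it alone lay above all controls. The differences from control at 1 mg/kg bw were 0.76 (standard error 0.28), or 1.70-fold, for miR-34b-5p and 0.88 (standard error 0.33), or 1.84-fold, for miR-34c-5p, given without a test because this contrast led to their choice. Groups without overlap and higher at 1 mg/kg bw were seen for 4.72% of tested miRNAs, and 7.78% had an unadjusted p under 0.05 there. Within row 1 of slide 1, the array at this dose exceeded the mean of the controls by 0.46 for miR-34b-5p and 0.45 for miR-34c-5p, and a fit that blocked on slide row gave 0.45 for each. The part of the slide row in these differences was not tested. In whole hippocampus, a different number of cells of a type and a different amount of RNA per cell cannot be told apart.

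**Figure D1:**
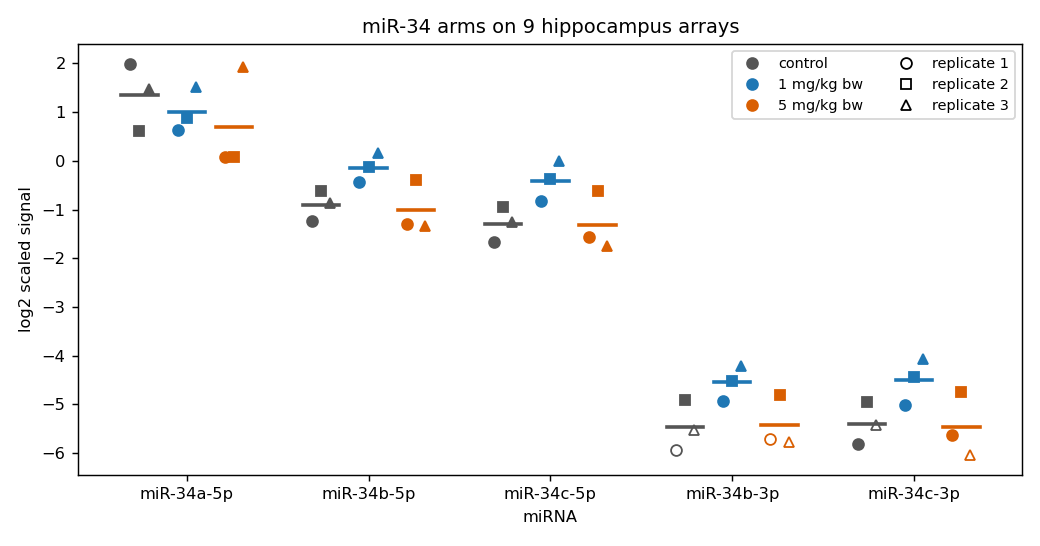
Log2 scaled signal of the 5 tested miR-34 arms on each of the 9 arrays, by group (colour) and replicate (shape), with the group mean as a bar and open symbols where the array did not call the miRNA detected. The 1 mg/kg bw arrays of miR-34b-5p and miR-34c-5p lie above all control arrays, and those of miR-34a-5p, between 0.63 and 1.52, overlap them.

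At 5 mg/kg bw, 0 of the 3 members detected on all 9 arrays passed an unadjusted p of 0.05 in limma, where 9.43% of all tested miRNAs did (40 of 424). The 2 dim 3p arms, tested only because the 1 mg/kg bw arrays detected them, did not pass either and are not counted against that share. After Benjamini-Hochberg adjustment over all 424, 0 members and 0% of all miRNAs passed 0.05. Groups without overlap were found for 0 of these 3 members and for 16% of all. The change of miR-34b-5p was -0.11 (standard error 0.28, limma adjusted p = 0.884, two-sided exact permutation p = 0.8), with a 95% interval from -0.75 to 0.53. That of miR-34c-5p was -0.025 (standard error 0.33, limma adjusted p = 0.978, exact permutation p = 1), with an interval from -0.78 to 0.73. For miR-34c-5p this interval runs from 0.582-fold to 1.66-fold of the control, and smaller changes in either direction could not be detected with 3 arrays per group. The smallest p that a permutation of 3 against 3 arrays allows is 0.1. Within row 1, 5 mg/kg bw replicate 3, on the other slide, lay below the control mean by values of -0.44 for miR-34b-5p and -0.46 for miR-34c-5p. Within row 2, which held no control, the 5 mg/kg bw arrays differed from the 1 mg/kg bw arrays by -0.86 and -0.90, and the fit blocked on slide row gave -0.43 and -0.46 against the control.

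The 3p arms of miR-34b and miR-34c, the strands usually discarded, were dim and followed the 5p arms. The signal of miR-34b-3p was 8.90, 18.5 and 10.6 units on the control arrays, 16.6, 26.2 and 33.2 units at 1 mg/kg bw, and 10.6, 19.8 and 11.3 units at 5 mg/kg bw. That of miR-34c-3p was 9.69, 17.9 and 11.5 units on the control arrays, 15.8, 27.8 and 36.6 units at 1 mg/kg bw, and 11.2, 20.6 and 9.31 units at 5 mg/kg bw. In each arm, 2 of 3 arrays at 1 mg/kg bw lay above all controls on the scaled values, and the groups overlapped. The log2 differences from control were 0.91 (standard error 0.34) and 0.90 (standard error 0.37) at 1 mg/kg bw, again as a description. At 5 mg/kg bw they were 0.029 (standard error 0.34, limma adjusted p = 0.972) for miR-34b-3p and -0.078 (standard error 0.37, limma adjusted p = 0.935) for miR-34c-3p. These signals lay close to the lowest detected signal of an array, 5.99 to 8.10 units, to which lower values were raised. The spots of one probe had a median coefficient of variation of 33.4% for miR-34b-3p and 34.3% for miR-34c-3p, against 5.10% to 5.52% for the 3 detected 5p arms. With normexp background correction the differences at 1 mg/kg bw shrank to 0.047 and 0.056. That correction added an offset of 50 units to each spot, more than these signals, which compresses log2 differences. With the shorter probe alone the differences were 0.16 and -0.14. That probe averaged only 6.42 units for miR-34b-3p and 4.33 units for miR-34c-3p. All its control values were raised to the lowest detected signal, so these 2 differences partly reflect that limit.

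**Figure D2:**
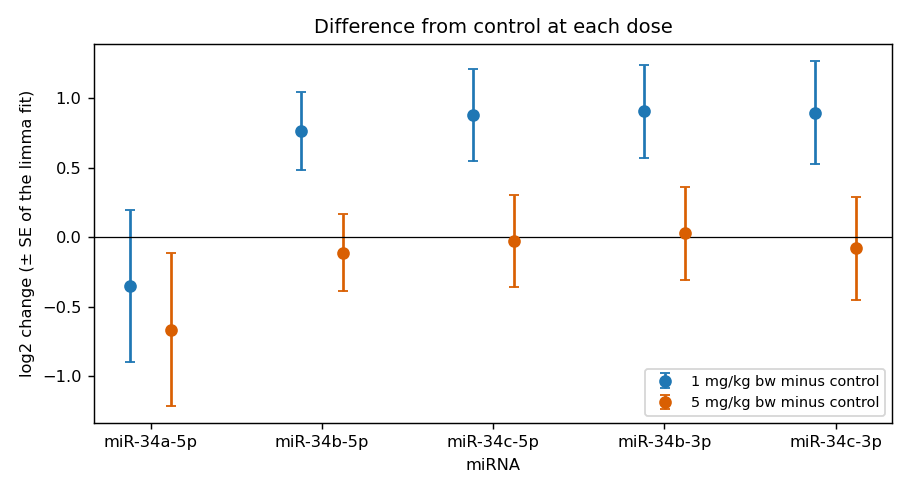
Log2 difference from control (y axis) of the 5 tested arms at both doses, with the standard error of the limma fit over 9 arrays as bars. The miR-34b and miR-34c arms lie between 0.76 and 0.91 at 1 mg/kg bw, and between -0.11 and 0.029 at 5 mg/kg bw, and the bars of miR-34a-5p, at -0.35 and -0.66, are the widest, with a value at 1 mg/kg bw that turned to 0.077 when slide row was a block.

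miR-34a-5p, from chromosome 4, did not follow the chromosome 9 arms. The log2 scaled signal of mmu-miR-34a-5p was 2.00, 0.61 and 1.48 on the control arrays, 0.63, 0.88 and 1.52 at 1 mg/kg bw, and 0.08, 0.07 and 1.94 at 5 mg/kg bw. Replicates 1 and 2 at 5 mg/kg bw were the lowest of the 9 arrays, below every control, while replicate 3 was almost as high as the highest control, and the groups overlapped at both doses. At 1 mg/kg bw the difference from control was -0.35 (standard error 0.55), with a direction that depended on the fit: it was 0.077 when slide row was a block, -0.032 without control replicate 1 and -0.73 without control replicate 2. At 5 mg/kg bw it was -0.66 (standard error 0.55), or 0.632-fold, with an unadjusted p of 0.259 and an adjusted p of 0.716 in limma, an exact permutation p of 0.3 and a 95% interval from -1.91 to 0.59. Without 5 mg/kg bw replicate 3, the array alone on its slide, the change was -1.28 (standard error 0.40, unadjusted p = 0.0124 and adjusted p = 0.165 in limma), and 120 miRNAs instead of 40 then passed an unadjusted p of 0.05, of which 0 passed after adjustment. That array exceeded the mean of the controls by 0.58, and a fit that blocked on slide row gave a change of -0.24. The part of the slide in these differences was not tested.

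The members differed more between arrays of the same group than most miRNAs. The within-group standard deviation of miR-34a-5p was 0.79 on the log2 scale, the seventh highest of 424, and its signal spanned 3.79-fold over the 9 arrays. It was 0.47 for miR-34c-5p (rank 18), 0.40 for miR-34b-5p (rank 27), 0.48 for miR-34b-3p (rank 17) and 0.53 for miR-34c-3p (rank 11). The median of all tested miRNAs was 0.14 and the 95th percentile 0.43.

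**Figure D3:**
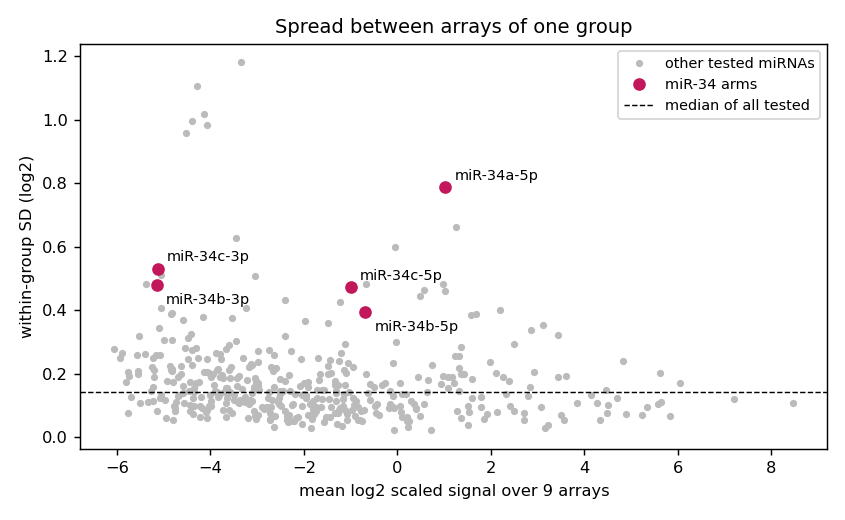
Standard deviation within groups (y axis, log2) against the mean log2 scaled signal (x axis) of the 424 tested miRNAs, with the 5 tested miR-34 arms in colour and the median of all as a dashed line. The 5 arms lie between 0.40 and 0.79, above the median of 0.14.

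The 2 guide arms of the chromosome 9 locus moved together from array to array. The difference between miR-34c-5p and miR-34b-5p on the same array ran from -0.44 to -0.17 over the 9 arrays, a span of 1.21-fold, and the differences between the 3p and the 5p arm spanned 1.22-fold for miR-34c and 1.33-fold for miR-34b. Deviations of the 2 guide arms from their group means had a Pearson r of 0.993 and a Spearman rho of 0.983 over 9 arrays, with a two-sided exact permutation p of 0.00463 for both over the 216 arrangements within groups, the smallest they can give (adjusted p = 0.0139 over 3 pairs of members). Without the 2 arrays farthest from the median r was 0.990, and over the signals of row 1 (5 arrays) and row 2 (4 arrays) it was 0.997 and 0.999. The longer probe targets of these 2 arms differ at only 2 bases from each other's hairpin, as given above.

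A relation between miR-34a-5p and the chromosome 9 arms was not detected. The r of the deviations was -0.41 with miR-34b-5p (rho -0.57, exact permutation p = 0.477 and 0.227, adjusted 0.477 and 0.278) and -0.42 with miR-34c-5p (rho -0.50, exact permutation p = 0.440 and 0.278, adjusted 0.477 and 0.278). Without control replicate 1 and 5 mg/kg bw replicate 3, r was 0.030 and 0.051, so the negative values rested on these arrays. The direction also turned between the rows of the slides, with r between miR-34a-5p and miR-34b-5p at -0.96 over the 5 arrays of row 1 and 0.80 over the 4 arrays of row 2.
The log2 difference of miR-34c-5p minus miR-34a-5p, in which the scaling between arrays cancels, was -3.67, -1.55 and -2.73 on the control arrays, -1.46, -1.26 and -1.53 at 1 mg/kg bw, and -1.65, -0.70 and -3.68 at 5 mg/kg bw. Its 3 values at 1 mg/kg bw lay above all controls only narrowly, with the lowest at -1.53 and the highest control at -1.55. They are a description without a test, because this contrast led to the choice of miR-34c. The values of the control and 5 mg/kg bw groups spread widely and overlapped. The change at 5 mg/kg bw was 0.64 (exact permutation p = 0.8), and it was -0.02 without replicate 2 of that group and -0.22 when slide row was a block.

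**Figure D4:**
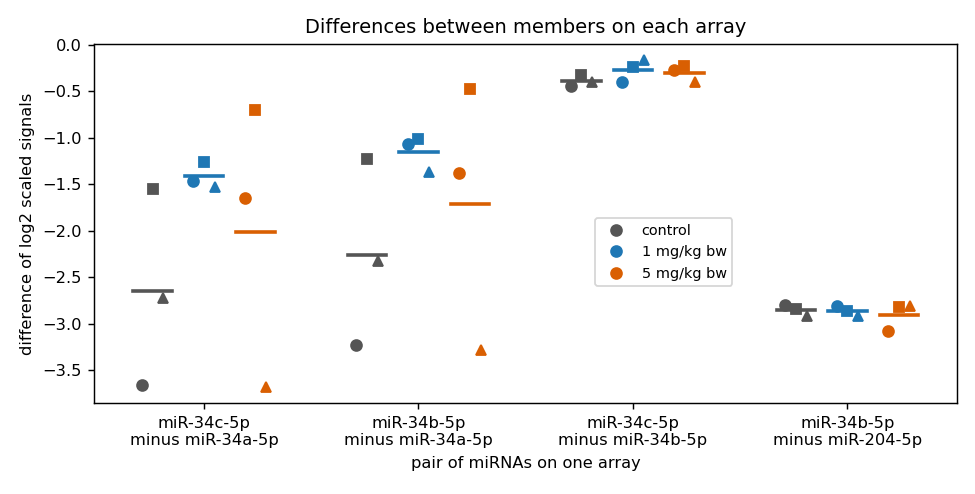
Difference of the log2 scaled signals of 2 miRNAs on the same array (y axis) for 4 pairs, by group (colour) and replicate (circle 1, square 2, triangle 3), with group means as bars. Only the movement between arrays can be read, since each pair differs in its probes: miR-34c-5p minus miR-34b-5p stays between -0.44 and -0.17, and miR-34c-5p minus miR-34a-5p runs from -3.68 to -0.70.

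Among the 419 tested miRNAs outside the family, those most like the mean of the 4 miR-34b and miR-34c arms over the 9 arrays were miR-204-5p (r = 0.991), miR-204-3p (0.974), miR-211-5p (0.955), miR-1298-5p (0.900) and miR-448-3p (0.879). These values describe 9 arrays that share their scaling and groups. They include the difference at 1 mg/kg bw from which the miR-34b and miR-34c arms were chosen, and are not a test. For deviations from the group means, r ran from 0.981 for miR-204-5p to 0.789 for miR-448-3p. All 5 miRNAs belong to a list, with 8 tested arms, of choroid plexus miRNAs and miRNAs from the intron of the serotonin receptor gene Htr2c. That gene is strongly expressed in the choroid plexus, the epithelium that secretes cerebrospinal fluid. The log2 scaled signal of miR-204-5p was 1.57, 2.23 and 2.07 on the control arrays, 2.37, 2.73 and 3.08 at 1 mg/kg bw, and 1.78, 2.43 and 1.47 at 5 mg/kg bw, in the same order of arrays as the mean of the miR-34b and miR-34c arms (rho = 1). The difference of miR-34b-5p from miR-204-5p on the same array was -2.86 ± 0.06 (SD, n = 3) in the control group, -2.86 ± 0.06 (SD, n = 3) at 1 mg/kg bw and -2.91 ± 0.15 (SD, n = 3) at 5 mg/kg bw. Relative to miR-204-5p, which was set beside it after its values were seen, miR-34b-5p thus moved by -0.0063 from control to 1 mg/kg bw and miR-34c-5p by 0.11.

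Of the 14 arms of the choroid plexus and Htr2c list on the array, 8 were tested, 4 were detected on all 9 arrays and 4 (miR-448-5p, miR-1264-3p and both arms of miR-1912) on 0 arrays. The other 4 tested arms (miR-204-3p, miR-448-3p, miR-764-5p and miR-1298-3p), like the miR-34 3p arms, were detected on all arrays of the 1 mg/kg bw group alone and so entered the test through that group. Of the 4 detected on all 9 arrays, miR-204-5p was higher at 1 mg/kg bw by 0.77 (standard error 0.28). This is a description without a test, since miR-204-5p was found by its likeness to arms chosen from this contrast. The changes of the remaining 3 were 1.45 (standard error 0.82) for miR-1298-5p, 0.43 (0.22) for miR-211-5p and -0.046 (0.12) for miR-211-3p, likewise without a test. The arms that entered through the 1 mg/kg bw group have no test at that dose, since their detection there led to their entry. Their changes were 1.08 (standard error 0.36) for miR-204-3p and 1.26 (0.68) for miR-448-3p. They were 0.63 (standard error 0.67) for miR-764-5p and 0.77 (0.34) for miR-1298-3p. In the limma comparison at 5 mg/kg bw, 0 of the 4 arms detected on all 9 arrays passed an unadjusted p of 0.05, beside 9.43% of all tested miRNAs. The arms that entered through the 1 mg/kg bw group did not pass either and are not counted against that share. The summed scaled signal of the list was 3.31 to 5.27 in the control group, 5.80 to 9.35 at 1 mg/kg bw and 3.05 to 6.0 at 5 mg/kg bw, and miR-204-5p alone made up 86.9% to 91.0% of it, so the sum mainly repeats the values of that miRNA. The part of choroid plexus tissue in the miR-34b and miR-34c values was not tested. The miRNAs that mark multiciliated cells were below detection: all 5 arms of miR-449a, miR-449b and miR-449c on the array were detected on 0 of 9 arrays. The signals of the 2 probes of miR-449a-5p averaged 1.83 and 5.28 units.

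**Figure D5:**
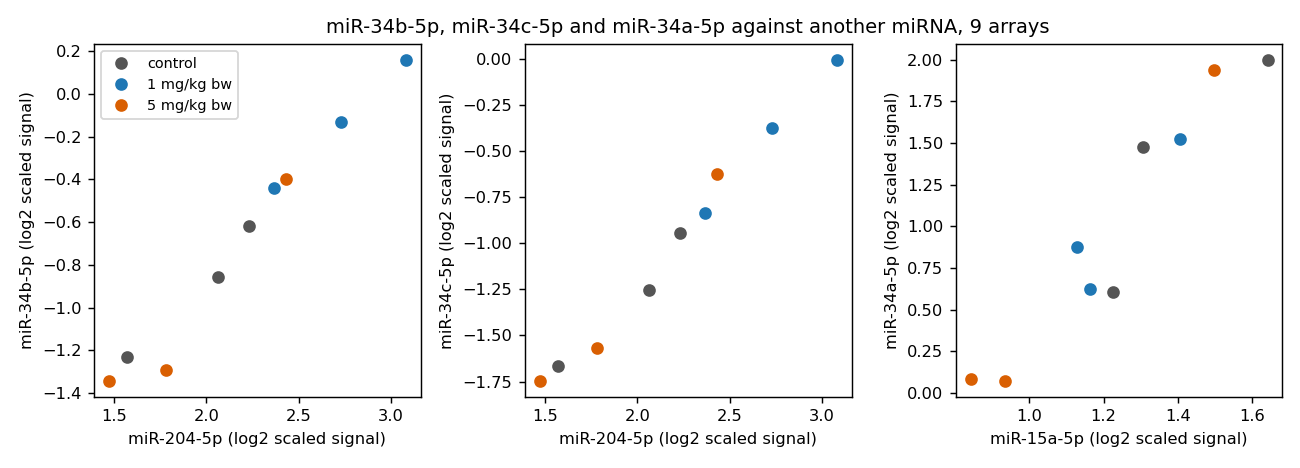
Log2 scaled signals on the 9 arrays of miR-34b-5p and miR-34c-5p (y axes) against miR-204-5p, and of miR-34a-5p against miR-15a-5p, coloured by group. miR-34b-5p and miR-34c-5p rise with miR-204-5p across all 3 groups, with 1 mg/kg bw replicates 2 and 3 at the upper end. On these axes 5 mg/kg bw replicate 2 lies above 1 mg/kg bw replicate 1. The 1 mg/kg bw arrays of miR-34a-5p lie among the others.

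The miRNAs most like miR-34a-5p were others: miR-24-1-5p (r = 0.964 over the same 9 arrays), miR-15a-5p (0.956), miR-133b-3p (0.953), miR-23b-3p (0.951) and miR-598-3p (0.944). The log2 scaled signal of miR-15a-5p, which represses Bcl2, was 1.64, 1.23 and 1.30 on the control arrays, 1.16, 1.13 and 1.41 at 1 mg/kg bw, and 0.84, 0.93 and 1.50 at 5 mg/kg bw. As for miR-34a-5p, replicates 1 and 2 were the lowest arrays at 5 mg/kg bw, and replicate 3 lay among the controls. Its change at 5 mg/kg bw was -0.30 (standard error 0.19, limma adjusted p = 0.649).
Of 18 arms on a list of miRNAs linked with p53 (miR-107, miR-143, miR-145, miR-192, miR-194, miR-215, miR-15a and miR-16), 7 were tested and 11 were detected on 0 arrays. At 1 mg/kg bw 1 of the 7 was higher at an unadjusted p under 0.05, miR-143-3p by 0.29 (standard error 0.11, limma adjusted p = 0.543), and 0 were lower, beside 7.78% of all tested miRNAs. At 5 mg/kg bw 0 passed in either direction, beside 9.43% of all tested miRNAs, with a median change of -0.024. The change of miR-107-3p was -0.024 and that of miR-16-5p was -0.089 at 5 mg/kg bw (limma adjusted p = 0.884 for both).

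Markers of other cells were set beside the members in the same way. Of 6 blood arms 3 were tested, and miR-451a, the red cell miRNA, was higher at 5 mg/kg bw by 0.26 (unadjusted p = 0.0344 and adjusted p = 0.469 in limma). It was 1 of the 3 under an unadjusted p of 0.05 there, beside 9.43% of all tested miRNAs. The list's summed signal was 3.02 to 3.82 in the control group, 3.11 to 3.61 at 1 mg/kg bw and 3.90 to 4.22 at 5 mg/kg bw, of which miR-451a itself made up 94.6% to 96.2%. Of 16 arms of the miR-200 family and the miR-183 cluster, which mark other epithelia and sensory cells, 3 were tested and 0 passed at either dose. Of all tested miRNAs, 7.78% passed at the lower and 9.43% at the higher dose. Their median change was -0.62 at the lower and -0.84 at the higher dose, and the summed signal was 0.17 to 0.30, 0.10 to 0.29 and 0.04 to 0.33 in the control group and at the lower and higher dose. The part of these cell types in the values of the members was not tested.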

How the data were processed

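Total RNA of 9 hippocampus samples was labelled with Cy3 and hybridized to Agilent mouse miRNA arrays. The authors extracted the arrays with Agilent Feature Extraction 10.7, as the labels state, and deposited background-subtracted intensity values per spot with other flags for outliers and detection, not normalized between arrays. A table of log2 values that the authors deposited served as an alternative. Outlier spots were left out, spots of a probe averaged, probes summed, and each array divided by its 75th percentile, taken over 395 miRNAs with a detection call on all 9 arrays. The lowest detected signal of an array was its floor, set before log2. The 3 groups were fitted together with limma 3.58.1 (R 4.3.3, checked on simulated data), at the unadjusted threshold of 0.05 that the study's screen used, and permutations were run in SciPy 1.17.1.

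Every family arm was named, with the 5 other miRNAs of highest r for each locus and the fixed lists. Members and lists were chosen with earlier results of these data known. The number of arrays limits the precision. Sequences came from RefSeq (GRCm38.p6). Alternatives were other background corrections, summaries, scalings, filters, blocks, single probes and each array left out.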

Additional observations from a re-analysis of the deposited data

How the results depend on the processing

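Across the alternatives, 0 members passed an unadjusted p of 0.05 at 5 mg/kg bw, except miR-34a-5p when 5 mg/kg bw replicate 3 was left out (0 to 1 member when an array was left out). The count of all miRNAs at 5 mg/kg bw was 40, 17 with normexp, 102 with total gene signal (which moves the median change to 0.14), 14 with the slide row as a block and 21 to 120 with an array left out; the lowest came without control replicate 1 or 5 mg/kg bw replicate 1 or 2. At 1 mg/kg bw 33 passed, and normexp gave 14 and the row block 8. Leaving out an array gave 11 (control replicate 1) to 49, including 21 without 1 mg/kg bw replicate 2 or 3. Testing all miRNAs gave 780 at that dose, 13 higher and 767 lower. An arm detected on 0 arrays, such as miR-34a-3p, held only floor values. These averaged -6.06 in the control group and -6.45 at 1 mg/kg bw, so this count reflects the floor in large part. The changes at 5 mg/kg bw near 0 changed sign. miR-34b-5p moved from -0.11 to 0.046 (total gene signal) and 0.0037 (no scaling), and miR-34c-5p from -0.025 to 0.13, 0.089 and, with its first probe alone, 0.0065. miR-34b-3p moved from 0.029 to -0.073 (normexp), -0.37 (total gene signal), -0.0055 (quantile), -0.33 (row block), and -0.22 and -0.11 (single probes), and miR-34c-3p from -0.078 to 0.036 (no scaling) and 0.05 (deposited table). With an array left out, the changes ran from -0.42 to 0.056 for miR-34b-5p, from -0.37 to 0.19 for miR-34c-5p, from -0.28 to 0.31 for miR-34b-3p, from -0.44 to 0.21 for miR-34c-3p, from -1.28 to -0.34 for miR-34a-5p and from -0.02 to 1.47 for miR-34c-5p minus miR-34a-5p, which was -0.22 with the row block. At 1 mg/kg bw, miR-34b-3p moved from 0.91 to 0.047 (normexp), 3.16 (deposited table) and 0.16 (first probe), and miR-34c-3p from 0.90 to 0.056, 2.27, 0.36 (row block) and -0.14 (first probe), miR-34a-5p ran from -0.73 to 0.077, while miR-34b-5p stayed between 0.45 and 0.91 and miR-34c-5p between 0.45 and 1.10 in all 26 alternatives. Without 1 array of a group, a group of 2 shares the spread of the others. The first probes of both 3p arms lay below the floor on all control and 5 mg/kg bw arrays. Their values of -0.22 at 5 mg/kg bw, and of 0.16 and -0.14 at 1 mg/kg bw, therefore reflect the floor in part or whole. The normexp offset of 50 units exceeds the signals of the 3p arms and compresses their changes. The causes of the other shifts were not tested. Replicate numbers were not treated as pairs, since the deviations of arrays with the same number had r from -0.65 to 0.74, and with the replicate number as a block 36 miRNAs passed at either dose and the changes of members at 5 mg/kg bw stayed at -0.66 for miR-34a-5p, -0.11, -0.025, 0.029 and -0.078 for miR-34b-5p, miR-34c-5p, miR-34b-3p and miR-34c-3p, and 0.64 for the difference. The 3p arms are limited by signal close to background.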
